A study of Mus musculus with 4 samples.

Results

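The unfolded protein response genes described here are 35 named genes of the 38457 mouse genes in the count tables of 4 single-cell libraries of mouse pancreatic islets. They were named for their part in the response, though with earlier results of these data known. By role they are 4 sensors and transcription factors, 16 chaperones and folding enzymes, 6 degradation genes, 6 genes of the Atf4 branch, 2 translocation genes and Wfs1. The libraries came from inDrop, in which single cells are caught in droplets and their RNA is tagged at the 3′ end, and from islets of mice labelled WT or Sin3A mutant, with 2 libraries per label that the series describes as biological replicates. Strain, age, sex, the mutant allele, any Cre driver, the cells in which Sin3a was changed and any pooling of animals were not stated in the labels. Titles carry 1 of 2 numbers of unknown meaning, here written A and B, each with 1 library labelled WT and 1 labelled mutant. Runs of 4 values give A before B and, within each, WT before mutant.

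Proteins bound for secretion fold in the endoplasmic reticulum, and when unfolded protein builds up there the sensors Ern1 (IRE1), Eif2ak3 (PERK) and Atf6 signal to the nucleus. Ern1 splices the messenger RNA of the transcription factor Xbp1, Atf6 is cut to release a transcription factor, and Eif2ak3 slows translation while raising the translation of Atf4. Xbp1 and Atf6 act on genes for chaperones and for the disposal of misfolded protein, and Atf4 acts on genes of amino acid supply and, with Ddit3 (CHOP), of cell death. Beta cells make insulin at a high rate, and loss of PERK, of Wfs1 or of other parts of the response is known to cause diabetes in mice or people. The counts do not tell spliced from unspliced Xbp1, the cut from the whole Atf6 protein or translated from untranslated Atf4, so every value below is an RNA level and not the activity of a branch.

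Cells were sorted by their own hormone and marker counts into gates. The insulin gate held 660, 744, 792 and 860 cells, the glucagon gate 125, 132, 520 and 370, the somatostatin gate 47, 33, 48 and 81, and the non-endocrine gate, mostly mesenchymal and endothelial cells, 198, 95, 265 and 649. Genes that define the gates were taken out of every sum, and a level in CPM is counts per 1000000 of those left in a library and gate. Median counts per cell ran from 6117.5 to 13166 in the insulin gate, from 4860.5 to 8109 in the glucagon gate and from 3838 to 5969 in the somatostatin gate. In the non-endocrine gate they were lower than in the insulin gate, at 4721, 4459, 3876 and 2592. As a check on the gates, 8 further beta cell genes summed to between 27942 and 42635 CPM of all counts in the insulin gate, with each of the 8 detected in each library, against 391.6 to 511.1 in the non-endocrine gate. The hormone gates were less far apart, with 2180.1 to 5083.3 in the glucagon and 12814 to 20486 in the somatostatin gate. Further alpha cell genes summed to 2915.2 to 7746.5 in the glucagon gate against 570.15 to 841.14 in the insulin gate. Further delta cell genes summed to 4587.5 to 11788 in the somatostatin gate against 276.31 to 463.74 in the insulin gate. Sin3a itself stood at 24.8, 48.8, 41.1 and 18.1 CPM of all counts of insulin-gated cells, higher in the library labelled mutant A than in WT A. In non-endocrine cells Sin3a stood at 29.6, 95.7, 33.9 and 26.5 CPM of all counts, from 30, 43, 40 and 51 counts. A 3′ tag outside the changed part of the gene would be counted from a mutant transcript too, so this checks no label. The cause of the higher level in mutant A was not tested, and neither was an exchange of labels. Directions are given by the labels as they stand. Between 12 and 42 cell barcodes were shared by any pair of libraries.

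RefSeq promoters on GRCm38.p6, 250 bases before to 50 after the start of transcription, were at hand for 31 of the 35 members. The endoplasmic reticulum stress element (ERSE), searched on both strands as CCAAT, 9 bases of any kind and CCACG, was in 10 of these 31 (32.3%) against 39 of 32851 promoters in the whole table (0.119%). These 10 were 8 chaperones and folding enzymes and 2 degradation genes, and none of the Atf4 branch, sensor, translocation or Wfs1 promoters at hand held it. The matches are printed so that their 9 free bases can be compared, in the orientation of the element, with the 2 parts fixed by the search in capitals:
Hspa5: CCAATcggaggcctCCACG
Hsp90b1, nearer copy: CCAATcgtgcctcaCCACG
Hsp90b1, farther copy: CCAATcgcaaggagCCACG
Calr: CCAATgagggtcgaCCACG
Canx: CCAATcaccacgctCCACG
Pdia6: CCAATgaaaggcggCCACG
Dnajc3: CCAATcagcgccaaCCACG
Creld2: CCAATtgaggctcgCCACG
Ero1lb: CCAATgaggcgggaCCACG
Syvn1: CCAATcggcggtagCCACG
Derl3: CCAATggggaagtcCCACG

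The second form of the element (ERSE-II), ATTGG, 1 base of any kind and CCACG, was in the promoters of Dnajb11 and Herpud1 (6.45% of the 31 against 0.0365% of all promoters), as ATTGGcCCACG and ATTGGgCCACG. The letters TGATGNAAN, the C/EBP-ATF element that Atf4 is known to bind, were in those of Herpud1, Trib3, Asns and Chac1 (12.9% against 3.95%), and the letters TGACGTGG were in none of the 31 and in 0.676% of all. A match is a description of letters, not of binding, and such elements are textbook knowledge for several of these genes. The 250 bases before the start are shown for 4 genes that the results below return to: Hspa5, the classic target, Ero1lb, one of the pair with the largest fitted differences between gates, Herpud1, which holds both kinds of element, and Asns, an Atf4 target. Capitals mark the ERSE, ERSE-II and C/EBP-ATF letters.
Hspa5 (chr2:34771840-34772089, plus strand): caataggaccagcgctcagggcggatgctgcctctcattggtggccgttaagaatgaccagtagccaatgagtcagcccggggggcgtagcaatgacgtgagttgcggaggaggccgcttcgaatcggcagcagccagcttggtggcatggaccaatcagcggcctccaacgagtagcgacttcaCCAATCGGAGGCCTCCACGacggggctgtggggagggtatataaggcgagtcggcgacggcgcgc
Ero1lb (chr13:12565633-12565882, plus strand): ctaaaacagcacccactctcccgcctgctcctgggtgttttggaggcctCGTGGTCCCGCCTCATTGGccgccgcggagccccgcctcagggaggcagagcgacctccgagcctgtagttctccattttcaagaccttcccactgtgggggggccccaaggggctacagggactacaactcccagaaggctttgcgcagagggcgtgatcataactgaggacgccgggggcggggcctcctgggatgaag
Herpud1 (chr8:94386179-94386428, plus strand): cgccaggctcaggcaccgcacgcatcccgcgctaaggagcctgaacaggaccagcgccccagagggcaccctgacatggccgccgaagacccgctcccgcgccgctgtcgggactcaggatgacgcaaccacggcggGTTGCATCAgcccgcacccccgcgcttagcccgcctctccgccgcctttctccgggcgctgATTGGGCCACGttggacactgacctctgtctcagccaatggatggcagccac
Asns (chr6:7693210-7693459, minus strand): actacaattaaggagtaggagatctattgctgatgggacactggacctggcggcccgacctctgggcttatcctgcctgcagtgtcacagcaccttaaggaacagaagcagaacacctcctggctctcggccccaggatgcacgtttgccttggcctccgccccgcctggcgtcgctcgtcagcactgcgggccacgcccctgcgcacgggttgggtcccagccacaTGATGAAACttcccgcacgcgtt

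RNA of the response took up a larger share of counts in insulin-gated cells than in non-endocrine cells of the same libraries. Summed over the 35 members, it made up 2.31%, 1.68%, 1.98% and 2.07% of counts in insulin-gated cells, against 0.695%, 0.599%, 0.637% and 0.674% in non-endocrine cells. These shares are of the counts left once the genes that define the gates, insulin among them, were taken out, so shares of all counts are smaller. The 16 chaperones and folding enzymes made up most of this, at 1.95%, 1.37%, 1.61% and 1.75% against 0.507%, 0.418%, 0.461% and 0.5001%. The 6 degradation genes stood at 0.141%, 0.0998%, 0.137% and 0.142% against 0.0487%, 0.0515%, 0.0452% and 0.0510%. In both roles all 4 insulin-gated sums lay above all 4 non-endocrine sums. Sums of the 6 genes of the Atf4 branch did not share this pattern. They stood at 0.0506%, 0.0780%, 0.0802% and 0.0451% and overlapped the non-endocrine sums of 0.0840%, 0.0840%, 0.0763% and 0.0743%. Atf4 and Ppp1r15a made up most of these sums, which thus say little of the other genes of the branch.

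**Figure D1:**
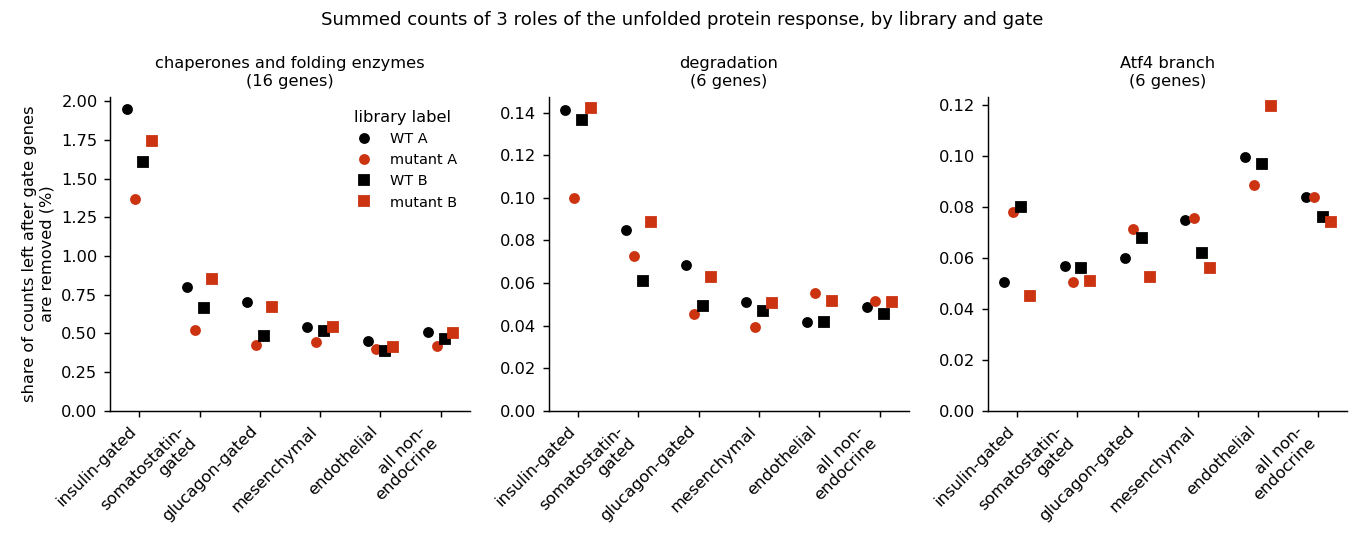
Share of counts (%, vertical axis, from 0) taken by the chaperones and folding enzymes, the degradation genes and the Atf4 branch in each gate (horizontal axis), 1 point per library, circles for A and squares for B, black for WT and red for mutant labels. Genes that define the gates, insulin among them, are left out of the counts. Chaperones stand between 1.37% and 1.95% in insulin-gated cells and at most at 0.507% in the pooled non-endocrine cells. Sums of the Atf4 branch, mostly Atf4 and Ppp1r15a, overlap between these gates.

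Gene by gene, 31 of the 35 members were higher in insulin-gated than in non-endocrine cells, 1 was lower and 3 were not called (edgeR's quasi-likelihood F test on 1 sum per library and gate with the library as a block, called at a Benjamini-Hochberg adjusted p under 0.05 over all genes). The background is high, since 48% of the 14102 genes tested were called, 24.3% as higher and 23.7% as lower. The median log2 difference was 1.72 over the members and 0.075 over all genes tested. All 16 chaperones and folding enzymes and all 6 degradation genes were higher, as were both translocation genes, Wfs1, and 3 of the 4 sensors and transcription factors, while the Atf4 branch gave 3 higher and 1 lower of 6. Libraries, not cells, are the replicates, and the number of higher members ran from 29 to 31 over all alternatives tried. On simulated sums of this comparison the test recovered 27.4% of the genes set 2-fold apart and 94.7% of those set 4-fold apart. A member that was not called is thus not shown to be alike between the gates.

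**Figure D2:**
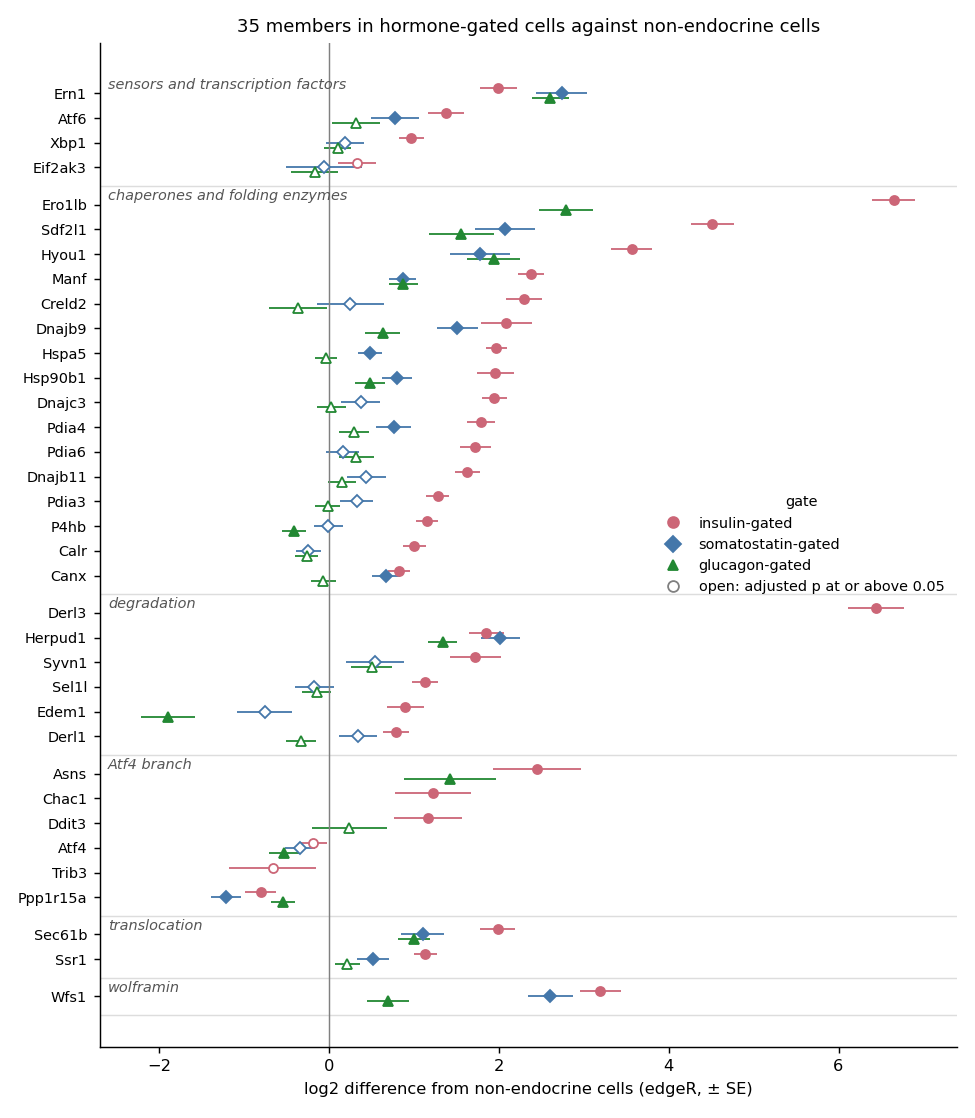
Log2 difference of each member from non-endocrine cells (horizontal axis, edgeR estimate ± SE over 4 libraries) in insulin-gated (red circles), somatostatin-gated (blue diamonds) and glucagon-gated cells (green triangles), ordered by role. Filled symbols are called and open ones are not. Ero1lb and Derl3 lie farthest right in insulin-gated cells, at 6.65 and 6.44, and Ern1 is the member for which insulin-gated cells lie left of the other 2 hormone gates by the widest margin.

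Among the sensors and transcription factors, Xbp1 stood at 196, 221, 376 and 169 CPM in insulin-gated cells and at 103, 94.8, 165 and 102 CPM in non-endocrine cells. Its log2 difference was 0.97 ± 0.15 (SE, edgeR, adjusted p = 0.000672), and within each library the insulin-gated sum was the higher one. Library WT B was high in both gates, so that its non-endocrine level nearly reached the lowest insulin-gated level. Ern1 differed by 1.99 ± 0.22 and Atf6 by 1.38 ± 0.21. Eif2ak3, whose product phosphorylates the initiation factor eIF2α, stood at 46.0, 33.4, 51.6 and 36.4 against 22.2, 27.1, 43.3 and 37.7 CPM, groups that overlapped, and was not called (0.33 ± 0.23, adjusted p = 0.258).

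Hspa5 encodes BiP, the main Hsp70 chaperone of the endoplasmic reticulum, which also holds the sensors inactive. It stood at 3912, 3179, 4753 and 4564 CPM in insulin-gated cells and at 994, 695, 1126 and 1306 CPM in non-endocrine cells. All 4 insulin-gated values lay above the 4 others, a difference of 1.97 ± 0.13 (adjusted p = 3.843e-06). Manf, a secreted stress-induced factor that binds BiP, stood at 2058.5, 1537, 1285 and 1699 against 305, 253, 282 and 383 CPM. Its log2 difference was 2.38 ± 0.15. Pdia4, a disulfide isomerase, stood at 551, 344, 399 and 553 against 152, 120, 119 and 126 CPM, a difference of 1.79 ± 0.17. The groups of Manf and of Pdia4 did not overlap either.

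The cofactors of BiP were higher in insulin-gated cells as well. Sdf2l1, which works with the DnaJ protein of Dnajb11, stood at 904, 536, 665 and 744 CPM in insulin-gated cells and at 28.3, 13.5, 47.6 and 32.4 CPM in non-endocrine cells. Hyou1, a large Hsp70-related protein that exchanges the nucleotide of BiP, stood at 219, 240, 153 and 108 against 19.2, 31.6, 7.79 and 7.97 CPM. The log2 differences were 4.51 ± 0.25 for Sdf2l1 and 3.56 ± 0.24 for Hyou1, and neither gene overlapped between the gates. Dnajb11 stood at 280, 248, 327 and 289 against 92.9, 65.5, 95.2 and 108 CPM (1.63 ± 0.15). Dnajc3, which encodes p58IPK, an inhibitor of PERK that also acts as a BiP cofactor, stood at 358, 335, 392 and 377 against 97.0, 90.3, 90.9 and 91.9 CPM (1.95 ± 0.15). The gates did not overlap for Dnajb11 or Dnajc3. Creld2, a factor of disulfide exchange, stood at 177, 111, 124 and 158 against 28.3, 31.6, 29.4 and 25.5 CPM (2.30 ± 0.21). The other chaperones and folding enzymes, with the exception of Ero1lb, differed by 0.83 (Canx) to 2.09 (Dnajb9).

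Ero1lb encodes the oxidase of disulfide isomerases that is known to be abundant in islets, and with Derl3 it had the largest fitted differences of the members. It stood at 850, 757, 1198 and 840 CPM in insulin-gated cells and at 9.09, 2.26, 15.6 and 7.44 CPM in non-endocrine cells, a log2 difference of 6.65 ± 0.25 (adjusted p = 3.719e-07). The non-endocrine values rest on 9, 1, 18 and 14 counts. Derl3, a derlin of the channel for misfolded proteins, was the other of the pair. It stood at 174, 60.0, 70.2 and 130 CPM against 1.01, 0, 0.866 and 2.13 CPM, from 1, 0, 1 and 4 non-endocrine counts. Pooled over the libraries the ratio was 95.71 for Ero1lb, with an exact 95% interval of 70.78 to 132.8, and 87.05 for Derl3, with one of 39.94 to 237.4. These intervals cover counting error only, and they overlap, so the order of the pair is not settled.

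RNA set free by broken cells adds counts of abundant genes to every droplet, and insulin, which non-endocrine cells do not make, serves here as a yardstick. The yardstick is partly set by the gate, since non-endocrine cells were taken only with a largest hormone share under 2%. Insulin RNA (Ins1 plus Ins2) in non-endocrine cells stood at 1.51%, 0.957%, 1.53% and 1.22% of its level in insulin-gated cells, both in CPM of all counts. Ero1lb stood at 1.28%, 0.428%, 1.46% and 0.943% of its own insulin-gated level, at or under the percentage of insulin in all 4 libraries. Derl3 was at or under it in 3 of 4 and above it in mutant B, at 1.73%. Counts of these 2 genes in non-endocrine cells are thus near the percentage of insulin, and whether they come from free RNA was not tested. The other 33 members lay above the percentage of insulin in all 4 libraries, 28 of them by more than 10 times. For Sdf2l1 the percentages were 3.76%, 3.63%, 8.04% and 4.64%, and for Hspa5 30.5%, 31.4%, 26.6% and 30.5%.

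Of the degradation genes, Herpud1 encodes a membrane protein of the complex that sends misfolded proteins to the proteasome. It stood at 205, 239, 310 and 149 CPM in insulin-gated cells and at 81.8, 58.7, 55.4 and 43.6 CPM in non-endocrine cells, without overlap (1.85 ± 0.21, adjusted p = 9.672e-05). Syvn1, the ubiquitin ligase of that complex, differed by 1.72 ± 0.30, its partner Sel1l by 1.13 ± 0.15, the lectin Edem1 by 0.90 ± 0.22 and Derl1 by 0.79 ± 0.15. Edem1 was not called against mesenchymal cells alone (0.79, adjusted p = 0.0502). Wfs1, the membrane protein wolframin, stood at 372, 208, 253 and 315 against 31.3, 40.6, 19.1 and 36.1 CPM (3.19 ± 0.24). Sec61b, a subunit of the channel through which new proteins enter the endoplasmic reticulum, stood at 280, 282, 262 and 128 against 90.9, 49.7, 79.7 and 23.9 CPM (1.99 ± 0.21). Library mutant B was low in both gates for Sec61b, and the gates did not overlap for either gene. Ssr1, a subunit of the translocon-associated complex, differed by 1.14 ± 0.14.

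The Atf4 branch was split. Atf4 stood at 194, 403, 410 and 214 CPM in insulin-gated cells and at 271, 375, 348 and 294 CPM in non-endocrine cells. The groups overlapped, the insulin-gated sum was the higher one in 2 of 4 libraries, and the gene was not called (-0.19 ± 0.16, adjusted p = 0.370). Ppp1r15a, which encodes GADD34, the phosphatase subunit that ends the arrest of translation, was the only member that was lower, at 237, 309, 335 and 199 against 544, 422, 401 and 436 CPM (-0.80 ± 0.18, adjusted p = 0.00626). Against the pooled non-endocrine cells it was lower in 4 of 4 libraries, without overlap. Mesenchymal cells alone stood at 495, 467, 296 and 299 CPM, which overlapped the insulin-gated values, and in WT B the insulin-gated level was the higher one. Endothelial cells alone stood at 633, 359, 532 and 789 CPM, without overlap. Asns, asparagine synthetase, stood at 45.7, 30.9, 28.6 and 17.1 against 1.01, 15.8, 3.46 and 4.78 CPM (2.44 ± 0.52), with its non-endocrine values from 1, 7, 4 and 9 counts.

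Ddit3 stood at 20.04, 27.0, 12.3 and 12.2 CPM in insulin-gated cells and at 18.2, 11.3, 2.598 and 3.19 CPM in non-endocrine cells, from as few as 3 counts. The groups overlapped through WT A, and the call (1.17 ± 0.40, adjusted p = 0.0388) ended without any one of mutant A, WT B or mutant B, at adjusted p of 0.06865, 0.1298 and 0.157, and against mesenchymal cells alone (0.208). Chac1, which degrades glutathione, was called at the edge of the threshold (1.23 ± 0.45, adjusted p = 0.0494) from 2, 3, 3 and 7 non-endocrine counts. Its call ended with DESeq2 (0.0823) and without WT A, WT B or mutant B (0.145, 0.201 and 0.122). Trib3, a pseudokinase induced by Ddit3, had 8 to 21 counts per library in insulin-gated cells and was not called.

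Most of the members also set insulin-gated cells apart from the other hormone cells, which secrete a peptide of their own. Against glucagon-gated cells 30 of 35 members were higher and 1 lower, where 23.9% of 14509 genes were called, 14% as higher and 9.93% as lower. All 16 chaperones and folding enzymes and all 6 degradation genes were among the higher ones, and the median log2 difference was 1.32 over the members and -0.01 over all genes. The call of Herpud1 ended with the hormone gate at 5% of counts (edgeR adjusted p = 0.0610) and without WT B (0.0689). Against somatostatin-gated cells 24 of 34 tested members were higher and 1 lower, where 14.4% of 13015 genes were called (8.34% higher, 6.05% lower), with medians of 1.15 and 0.08. The 2 comparisons share the insulin-gated sums. Hspa5 stood at 1094, 711, 1127 and 1472 CPM in glucagon-gated and at 1447, 1082.5, 1836 and 2114 CPM in somatostatin-gated cells. Both sets lay wholly under the insulin-gated values, by 2.04 ± 0.12 and 1.52 ± 0.13 (adjusted p = 6.5e-07 and 1.181e-10). Ero1lb stood at 76.8, 75.7, 67.5 and 62.8 CPM in glucagon-gated and at 36.3, 16.5, 15.6 and 184 CPM in somatostatin-gated cells. Its somatostatin-gated level in mutant B stood apart from those of the other libraries, from 60 counts against 8, 2 and 3. Insulin RNA stood highest in the same sum, with Ins1 at 1258, 1547, 547 and 2216 CPM of all counts, and its part in the Ero1lb level was not tested.

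A few members broke this pattern. Ern1 was lower in insulin-gated cells, at 53.8, 46.8, 64.8 and 83.2 CPM, than in glucagon-gated cells at 99.3, 83.4, 94.8 and 132 CPM (-0.60 ± 0.12, adjusted p = 0.00436) and somatostatin-gated cells at 118, 90.9, 98.8 and 156 CPM (-0.74 ± 0.22, adjusted p = 0.0222). The last call ended without WT A or mutant B (adjusted p = 0.163 and 0.167) and with no filter on low counts (0.173), but in each library the somatostatin-gated and glucagon-gated sums were both above the insulin-gated one. Herpud1 was not called between insulin-gated and somatostatin-gated cells (-0.16 ± 0.19, adjusted p = 0.680), which stood at 277, 405, 192 and 242 CPM. Canx and Derl1 were not called there either. Wfs1 stood at 213, 140, 198 and 267 CPM in somatostatin-gated cells, nearer to its insulin-gated levels than to the 47.4, 44.8, 50.4 and 69.0 CPM of glucagon-gated cells. Its difference was 0.64 ± 0.17 in the former comparison and 2.53 ± 0.15 in the latter. The former call ended without WT A (edgeR adjusted p = 0.137). Of the Atf4 branch, Atf4, Ddit3 and Asns were higher in insulin-gated than in glucagon-gated cells (0.38 to 1.08), the calls of Atf4 and Ddit3 ending without any one of WT A, mutant A or mutant B (adjusted p = 0.0938, 0.0645 and 0.081 for Atf4, 0.0521, 0.0755 and 0.119 for Ddit3), and 0 of 5 members tested were called against somatostatin-gated cells (edgeR, 2 at an unadjusted p under 0.05).

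Glucagon-gated and somatostatin-gated cells were also set against the non-endocrine cells. In glucagon-gated cells 11 of 32 tested members were higher than in non-endocrine cells and 4 lower, where 49.4% of 10677 genes were called (24.5% higher, 24.9% lower), and in somatostatin-gated cells 14 of 29 were higher and 1 lower, where 44.8% of 6960 were (20.9% higher, 23.8% lower). Glucagon-gated cells thus had a share of called members near the background in both directions together, with more of them higher and fewer lower than the 24.5% and 24.9% of all genes. In somatostatin-gated cells the higher members were above the background of 20.9% and the 1 lower member under that of 23.8%. With no filter on low counts the called members were 9 higher and 4 lower. That setting tests other genes, and its own share of all genes called is not given here. Median log2 differences were 0.226 and 0.485 over the members and 0.035 and -0.036 over all genes. The 2 comparisons share the non-endocrine sums. Ern1 was higher in both, at 2.603 ± 0.22 and 2.74 ± 0.30 (adjusted p = 1.221e-06 and 1.775e-06), over 17.2, 9.03, 14.7 and 19.7 CPM in non-endocrine cells. Wfs1 was higher by 0.69 ± 0.25 and 2.61 ± 0.27, and its call in glucagon-gated cells ended with DESeq2 (adjusted p = 0.0916), without WT A, WT B or mutant B (0.0558, 0.196 and 0.15) and against mesenchymal cells alone (0.127). Herpud1 was higher in both by 1.34 ± 0.18 and 2.02 ± 0.23, Hyou1 by 1.94 ± 0.31 and 1.78 ± 0.35, and Sdf2l1 by 1.56 ± 0.38 and 2.07 ± 0.35. Hspa5 was not called in glucagon-gated cells (-0.03 ± 0.13, adjusted p = 0.854) and was called as higher in somatostatin-gated cells (0.49 ± 0.14, adjusted p = 0.00966). That call ended with DESeq2 (0.0742), without WT B or mutant B (0.0705 and 0.0651), against mesenchymal cells alone (0.139) and with no filter on low counts, where the difference was 0.14 (0.823). The setting with no filter also ended the somatostatin-gated calls of Atf6, Canx, Pdia4, Hsp90b1 and Ssr1. Edem1 was lower in glucagon-gated cells, at 18.1, 7.72, 22.6 and 26.4 against 75.8, 92.6, 55.4 and 61.6 CPM (-1.90 ± 0.32, adjusted p = 0.000358), without overlap and from 5 to 49 counts per library. Ppp1r15a was lower in both gates (-0.54 ± 0.14 and -1.21 ± 0.18), though against mesenchymal cells alone not in glucagon-gated cells (adjusted p = 0.131). Atf4 (-0.53 ± 0.18) and P4hb (-0.41 ± 0.14) were called as lower in glucagon-gated cells. The call of Atf4 ended with DESeq2 (0.0556), without WT A or mutant B (0.138 and 0.121) and against mesenchymal cells alone (0.265). That of P4hb ended without WT A, WT B or mutant B (0.0576, 0.124 and 0.0954) and against endothelial cells alone (0.466). Against mesenchymal cells alone, and likewise without mutant B, the glucagon gate gave 9 called members in place of 15. The share of all genes called in these settings is not given here.

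The wider machinery of the endoplasmic reticulum was read from 109 further genes listed by function. In insulin-gated against non-endocrine cells 61 of 104 tested were higher and 11 lower. These included 15 of 16 genes of translocation and signal peptide removal, 10 of 13 of glycosylation, 12 of 19 of folding and 12 of 17 of degradation as higher. Of 28 further Atf4 targets 9 were higher and 6 lower, and of 11 transducers 3 and 3, shares near the background of 24.3% and 23.7%. Against glucagon-gated cells 61 of 104 were higher and 4 lower, beside 14% and 9.93% of all genes. Against somatostatin-gated cells 41 of 104 were higher and 1 lower, beside 8.34% and 6.05%.

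Within the insulin gate, cells richer in insulin RNA were compared with cells poorer in it, to see whether the members follow the share of insulin. Each library was cut into terciles of the insulin share, and the upper tercile had median shares of 18.6%, 35.02%, 10.4% and 7.42% against 11.6%, 21.4%, 6.13% and 2.19% in the lower. Insulin was left out of the totals. Of 34 tested members 1 was higher and 0 lower, where 0.994% of 11464 genes were called (0.846% higher, 0.148% lower). The median log2 difference was 0.05 over the members and 0.00 over all genes. Hspa5 stood at 4102, 3088, 4794 and 4194 CPM in the upper and at 3765.5, 3302.5, 4872 and 4670 CPM in the lower tercile, a difference of -0.01 ± 0.06 with 1 of 4 libraries higher. On simulated sums of this comparison the test recovered 81.8% of the genes set 2-fold apart, and changes under 2-fold, the size of all those given here, were not simulated.

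Sec61b was the member that was called. It stood at 311, 302, 312 and 172 CPM in the upper and at 250, 268, 239 and 97.7 CPM in the lower tercile, higher in 4 of 4 libraries although the groups overlap (0.43 ± 0.10, edgeR adjusted p = 0.0378). The call ended with DESeq2 (adjusted p = 0.102), without WT A (0.135), WT B (0.308) or mutant B (0.07293), and under 5 other alternatives, while the difference stayed between 0.29 and 0.50. Manf was the next by p, at 2074, 1506.5, 1436 and 1834 against 1989.5, 1511, 1203 and 1637 CPM (0.14 ± 0.06, adjusted p = 0.494). Xbp1 (0.15 ± 0.09), Herpud1 (0.01 ± 0.09), Atf4 (-0.05 ± 0.08) and Ddit3 (0.13 ± 0.22) were not called. The log2 differences of the chaperones and folding enzymes all lay between -0.08 and 0.17 and those of the degradation genes between -0.06 and 0.07. Of the 102 further genes of the endoplasmic reticulum tested, 1 was higher. Acinar genes, which mark the enzyme-secreting cells of the exocrine pancreas, summed to 36.3, 35.02, 1145 and 46.0 CPM of all counts in the lower and to 22.1, 14.6, 32.5 and 47.1 in the upper tercile. Their part in the lower tercile of WT B was not tested.

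**Figure D3:**
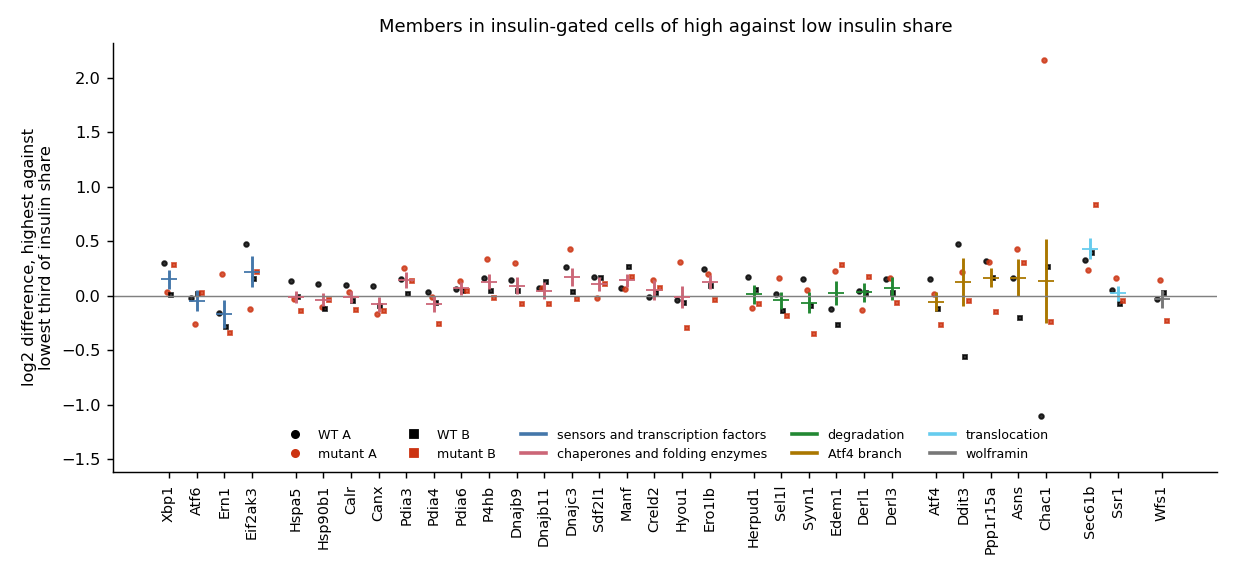
Log2 difference between the upper and lower tercile of insulin share within insulin-gated cells (vertical axis) for the 34 tested members (horizontal axis, by role). Horizontal ticks with bars are the edgeR estimate ± SE over 4 libraries, and small points are the libraries. All chaperones lie between -0.08 and 0.17, and Sec61b at 0.43 is the member whose 4 libraries stand clearest above 0. Chac1 has few counts and spreads widely.

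With the genotype label 0 of 35 members, and 0 of 16459 genes (0%), were called in insulin-gated cells. An unadjusted p under 0.05 was reached by 30 higher and 13 lower genes with edgeR, 0 of them members, and by 17 and 12 with DESeq2, which also called 0. Glucagon-gated (0 of 33 members, 0 of 11137 genes), somatostatin-gated (0 of 26, 0 of 4814) and non-endocrine cells (0 of 30, 0 of 10422) gave the same count, each 0% of genes. This does not show that the members are alike between the labels, since on simulated sums of the insulin-gated comparison the test recovered 2.2% of the genes set 4-fold apart. Nor was any member called for a change with the label that differed between insulin-gated and non-endocrine cells (0 of 35, 0 of 16508 genes, 0%).

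In place of one direction, the members ran opposite ways within the 2 title numbers. Hsp90b1, the Hsp90 chaperone of the endoplasmic reticulum, stood at 2614, 1143, 1420.5 and 2091 CPM in insulin-gated cells, so that the library labelled mutant was the lower one of A and the higher one of B. Scaled by TMM, its log2 change was -1.505 within A and 0.85 within B. The changes were -1.845 and 1.19 for Derl3, -1.24 and 0.79 for Pdia6 and -1.15 and 0.61 for Wfs1. Of the 34 members with at least 20 counts in each library, 22 were lower within A and higher within B, 2 were the reverse, 9 lower in both and 1 higher in both. On plain CPM these counts were 16, 7, 11 and 0, and relative to the median gene 21, 5, 7 and 1. The split is not particular to the members, since 75.6% of 10927 genes ran opposite ways relative to the median gene. A single library per label and number allows no test.

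The roles are given one by one, with no test between them. Of the 16 chaperones and folding enzymes 13 were lower within A and higher within B, with medians of -0.62 and 0.37, and of the 6 degradation genes 5 were, with medians of -0.88 and 0.49 (8 of 16 and 4 of 6 on plain CPM, where the median gene itself moved by 0.09 and -0.20). Relative to the median gene 14 of the 16 chaperones and 5 of the 6 degradation genes ran opposite ways in either order, beside 75.6% of all genes. Atf4 went the other way, at 194, 403, 410 and 214 CPM with changes of 0.74 and -0.65. WT A and mutant B were the 2 low libraries for Atf4 and the 2 high ones for Hsp90b1. They were also the 2 low ones for Sin3a in insulin-gated cells, and a link between these levels was not tested. In glucagon-gated cells 13 of 15 chaperones with enough counts were lower within A and higher within B (12 on plain CPM), in somatostatin-gated cells 7 of 9 and in non-endocrine cells 9 of 12 (8 on plain CPM). Over all genes with enough counts, 68.3%, 59.2% and 58.2% ran opposite ways in these gates relative to the median gene. In either order, 13 of 15, 7 of 9 and 10 of 12 chaperones did so on that scale. The share of all genes that were lower within A and higher within B was not counted in any gate. Median shares of insulin in insulin-gated cells were 14.7%, 28.3%, 7.93% and 3.37% and median mitochondrial shares 5.28%, 3.29%, 6.62% and 9.86%, and the part of neither in these changes was tested.

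**Figure D4:**
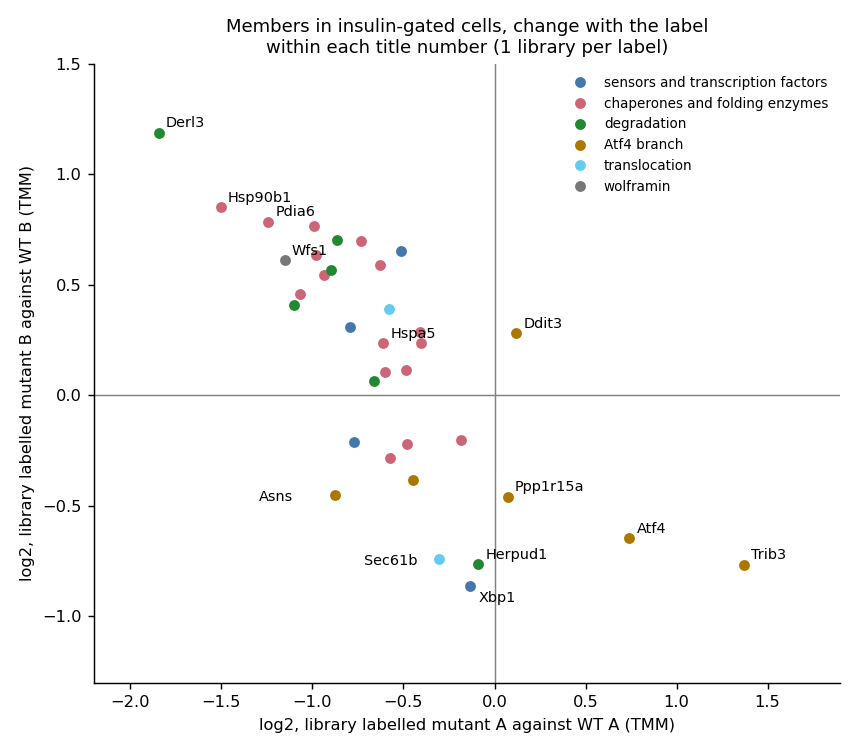
Log2 change of each member in insulin-gated cells from the library labelled WT to the library labelled mutant, within A (horizontal axis) and within B (vertical axis), TMM-scaled and coloured by role, 1 library per label and number, Trib3 with under 20 counts in some. Most chaperones and degradation genes lie in the upper left, with Derl3 at -1.845 and 1.19, and Atf4 lies in the lower right. On plain CPM several of the upper left points move under 0 within B.

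The members nearest to the threshold with the label were spread over roles and gates. Sec61b in non-endocrine cells, at 90.9, 49.7, 79.7 and 23.9 CPM, was lower in the library labelled mutant of both numbers (-1.26 ± 0.47, edgeR, unadjusted p = 0.0278, adjusted p = 1.0), the smallest p of any member in the 4 gates. It was lower within both numbers in insulin-gated cells as well, on TMM (-0.30 and -0.74) though not on plain CPM within A, with a difference of -0.49 ± 0.60. In somatostatin-gated cells, at 19 to 38 counts per library, it was higher within A (0.19) and lower within B (-1.42). Asns in insulin-gated cells (-0.71 ± 0.59), Xbp1 there (-0.56 ± 0.61) and in non-endocrine cells (-0.41 ± 0.43), Eif2ak3 in insulin-gated cells (-0.46 ± 0.57) and Herpud1 in non-endocrine cells (-0.41 ± 0.43) were not called. Neither were Sdf2l1 (-0.58 ± 0.57), Syvn1 (0.57 ± 0.45) and Wfs1 (0.64 ± 0.48) in non-endocrine cells, P4hb (-0.47 ± 0.50) and Ssr1 (-0.54 ± 0.51) in somatostatin-gated cells, or Chac1 in glucagon-gated cells (1.30 ± 1.01, from 2, 7, 13 and 18 counts). In insulin-gated cells Hspa5 differed by -0.10 ± 0.73, Atf4 by -0.02 ± 0.62, Ddit3 by 0.18 ± 0.64 and Herpud1 by -0.45 ± 0.60. Leaving out mutant A let 1 member pass in somatostatin-gated cells, Ero1lb at 2.80 (edgeR, adjusted p = 0.0226), a gene not tested there with all 4 libraries for its low counts and the one whose count stood apart in mutant B together with insulin RNA. The test of a difference between gates had Asns as the member of smallest p (-2.47 ± 0.91, unadjusted p = 0.0221, adjusted p = 1).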

How the data were processed

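Counts per gene and cell barcode were deposited by the authors as 4 tables, unnormalized. Of genome builds, GRCm38 and GRCh38 appear in the submitters' processing notes. The aligner, the counter and earlier cell filters were not given in the sources used here. Members, lists and tests were chosen with earlier results of these data known. Barcodes with at least 500 counts, 250 genes and at most 25% mitochondrial counts passed (6566), and 40 of these that Scrublet (scanpy 1.11.5) marked as doublets were left out, leaving 6526 cells. A gate needed a hormone at 1% of counts or more and 3 times the next hormone, or non-endocrine markers at 0.2% or more. Counts were summed per library and gate, without gate genes, scaled by TMM, filtered by filterByExpr and tested with edgeR 4.0.16 (quasi-likelihood F, Benjamini-Hochberg over all genes), with the library as a block between gates. SE is the log2 difference over the square root of F. DESeq2 1.42.0 was an alternative. Tests were tested on simulated data. The series calls the libraries of a genotype biological replicates but names no animals, so p-values measure only the spread between libraries. Libraries of a label differed beyond counting error. Libraries held 9282495 to 12835199 counts. Intervals cover counting error only. Per-library values were given for members called in insulin-gated against non-endocrine cells or between terciles (up to 12 of smallest p each), and always for Xbp1, Atf4, Ddit3, Hspa5 and Herpud1. For the 2 members of smallest p per role with the genotype label the log2 difference was given, with per-library values for only some of them. Other members named were chosen after their values were seen. Alternatives left out each library, changed the low-count filter, the hormone gate, the mitochondrial limit, the block and the non-endocrine cells, and, for the terciles, thinned cells to 2000 counts, left out cycling cells or cut at the median.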

Additional observations from a re-analysis of the deposited data

Results flagged for a closer look

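Relative to the median gene, 3 members changed with the label by at least 2-fold in opposite directions within the 2 title numbers, and were singled out for that. Derl3 in insulin-gated cells changed by -1.62 within A and by 1.09 within B. In glucagon-gated cells Pdia6 changed by -1.2 within A and 1.08 within B, and Sdf2l1 by -1.68 and 1.81. With 1 library per label and number these differences between A and B were not tested. Of all genes with enough counts, 75.6% in insulin-gated and 68.3% in glucagon-gated cells ran opposite ways relative to the median gene. The share of all genes that did so by at least 2-fold was not counted.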

How the results depend on the processing

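Of the alternatives for single members, 545 that left out a library kept direction and call, 47 lost the call, 1 gained it and 9 changed sign; for other settings these were 933, 89, 4 and 3. Between 30 and 32 members were called in insulin-gated against non-endocrine cells under all alternatives run. With no replicate block, 18 members were called against glucagon-gated cells and 11 against somatostatin-gated cells, and 7 in glucagon-gated against non-endocrine cells, where mesenchymal cells alone gave 9 and leaving out a library 9 to 17. Shares of all genes called under these alternatives are not given here. A loss of calls among the members is thus not told apart from one over all genes. Between terciles of insulin share 0 members were called with DESeq2, at most 10% mitochondrial counts, no replicate block, thinned cells, cycling cells left out or a split at the median, and 0 to 1 without a library. With the label in somatostatin-gated cells leaving out a library gave 0 to 1. The cause of these changes was not tested. Sign changes without a library: with the label in insulin-gated cells Hspa5 ran from -0.79 to 0.32, Atf4 from -0.47 to 0.50 and Ddit3 from -0.22 to 0.60. Against glucagon-gated cells Trib3 ran from -1.18 to 0.023 and Chac1 from -3.548e-05 to 0.67, and against somatostatin-gated cells Eif2ak3 from -0.079 to 0.89 and Herpud1 from -0.47 to 0.032. Atf4 with the label stood at 0.0054 with at most 10% mitochondrial counts and at 0.047 with the title number as a replicate block, and against mesenchymal cells alone at 0.049; none of these values was called. The replicate block called 0 members with the label in any gate. Libraries of the same title number deviated together with correlations of 0.0618 to 0.518 over genes, and 2 pairs are too few to settle whether the numbers pair the libraries. Non-endocrine counts of Derl3, Ero1lb, Asns, Ddit3 and Chac1 are few, which limits their fold changes.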
